A study of Mus musculus with 8 samples.

Results

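Genes of mitochondrial and peroxisomal fatty acid oxidation were followed through a list of 44 names that covers their regulators, the activation of fatty acids, the carnitine shuttle, the mitochondrial and peroxisomal enzymes and the ketone steps. A member was measured by the rows of a whole-transcript mouse array whose platform annotation gives exactly 1 gene symbol, with the brightest row per gene by mean over the 8 arrays. This gave 41 of the 44 members, out of 19310 genes on 20748 such rows, and each of the 41 had 1 row. Acsl3 and Cpt1b shared their rows with another symbol and no row was used for Acsl1, so these 3 members were not analysed here.

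The arrays measured RNA of epididymal white adipose tissue, the visceral fat pad beside the epididymis, from C57BL/6 males, 12 to 15 weeks of age. The labels give 4 samples the genotype WT and 4 the genotype Rev-erb alpha KO, a loss of the circadian nuclear receptor encoded by Nr1d1. Both groups ate a standard diet, lived under 12 h of light and 12 h of darkness, and gave tissue at Zeitgeber time 10, in hours after lights on. The sources used here do not say how the knockout was made or whether each sample came from a separate mouse, so p-values measure only the spread between these samples, which may be technical.

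Fatty acids become ready for oxidation when acyl-CoA synthetases join them to coenzyme A. Long chains then cross into mitochondria as carnitine esters, a step set by carnitine palmitoyltransferase 1 and inhibited by malonyl-CoA, and are shortened in rounds of dehydrogenation, hydration, dehydrogenation and thiolysis. Peroxisomes shorten very long, branched and dicarboxylic chains with a parallel set of enzymes. The fatty acid receptor PPAR alpha drives many of these genes, above all in liver, while white fat mainly stores and releases fatty acids.

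All values are log2 expression as deposited, and a log2 fold change is the mean of the knockout-labelled arrays minus the mean of the wild-type arrays. The number of arrays, 4 in each group, limits the precision. The row of the targeted gene Nr1d1 read 9.40 ± 0.33 in wild type and 9.14 ± 0.35 in the other group (SD, n = 4 each), which overlapped (log2 fold change -0.26, limma adjusted p = 0.479). The sources used here do not place that row relative to the deleted part, so it cannot check the genotypes, and the term knockout-labelled is used for those arrays. Arntl, a clock gene that Rev-erb alpha represses, rose by 1.85 (limma adjusted p = 3.2e-05). On the principal component that took 43.2% of the variance, wild-type arrays lay from -15 to -12.2. Knockout-labelled arrays 1 to 4 lay there at 9.41, 9.34, 19 and 17.6. On the one that took 14.7%, knockout-labelled arrays 1 and 2 lay at -12.8 and -10.7 and arrays 3 and 4 at 11.4 and 5.91. Wild-type array 1 lay at 9.93 on it, and the other wild-type arrays from -2.42 to 0.428. Values for each pair of arrays are given where a call or its size depended on the pair. The labels do not give these pairs, which follow that component of these same data. A pass with 1 pair alone is therefore a description and not a separate test.

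Of the 41 measured members, 8 fell and 0 rose in the knockout-labelled tissue (limma, Benjamini-Hochberg adjusted p under 0.05 over all 20748 rows). The 8 were the peroxisomal genes Ehhadh, Pex11a and Acaa1b, the receptor gene Ppara, the carnitine palmitoyltransferase gene Cpt1a and the mitochondrial genes Acadl, Etfb and Acads. That is 19.5% of the measured members, where 3.59% of all tested rows were lower and 3.81% higher. At an unadjusted p under 0.05, 14 members were lower and 3 higher, and at that level 11.7% and 10.2% of all rows were. The median log2 fold change of the members was -0.09, against -0.0064 over all rows, and 28 members (68.3%) lay below 0, as did 52.0% of all rows. In bulk tissue, fewer cells of a type and less RNA per cell cannot be told apart.

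With an array left out, fewer of the 8 passed. Ehhadh, Pex11a, Ppara and Cpt1a passed in each of the 8 fits that left out 1 array. The count was 4 without array 3 or 4 of wild type or array 4 of the knockout-labelled group, and 5 without array 1 of wild type or array 2 of the knockout-labelled group. With knockout-labelled arrays 3 and 4 both left out 4 were lower (Ehhadh, Pex11a, Cpt1a and Etfb) and 1 was higher (Pdk4). With arrays 1 and 2 both left out, 7 were lower (Ehhadh, Pex11a, Ppara, Cpt1a, Acadl, Acaa1b and Eci1) and 0 higher. Over all rows, 298 (1.44%) were lower without arrays 3 and 4 and 815 (3.93%) without arrays 1 and 2, against 745 (3.59%) with all arrays. Lower rows were not counted over all rows in the fits without a single array. The drop in members there cannot be set against a drop over all rows.

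**Figure D1:**
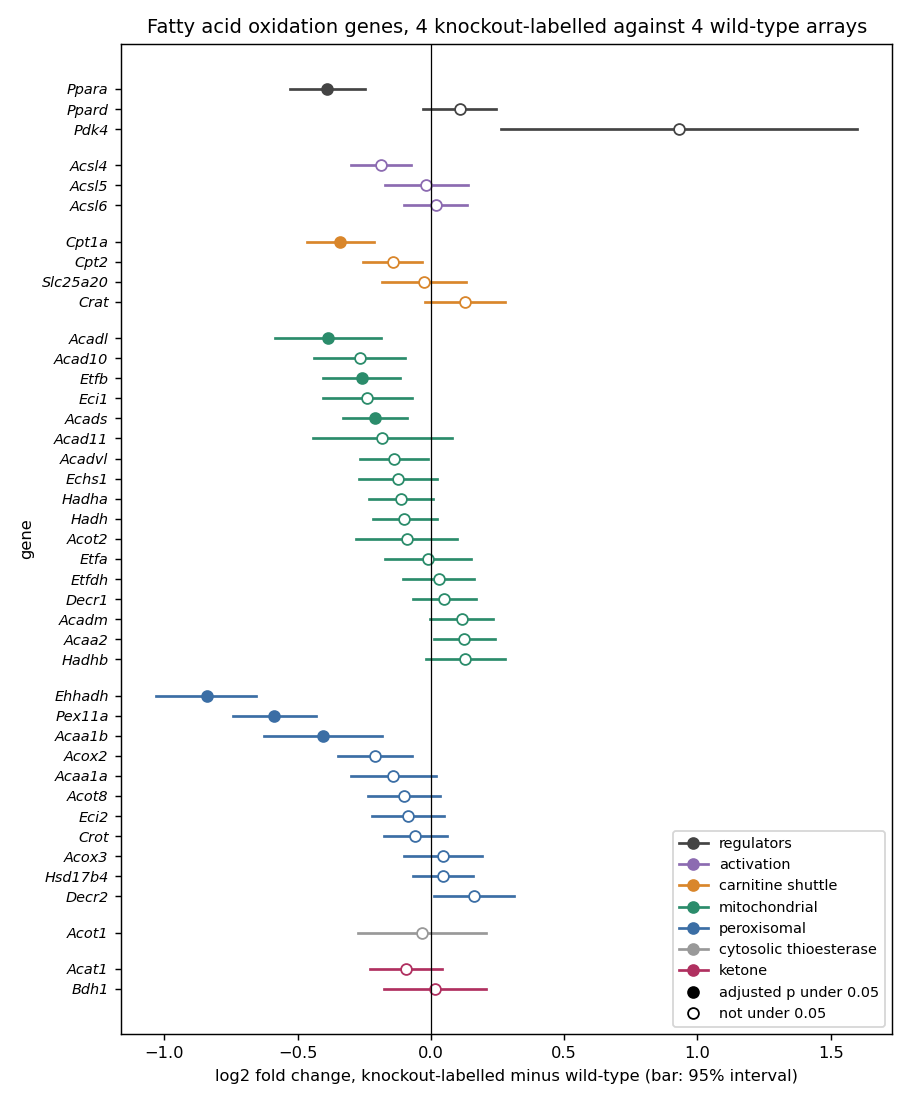
Log2 fold change (x axis, knockout-labelled minus wild-type, 4 arrays each) of the 41 measured members (y axis), coloured by role, with 95% intervals from the moderated fit. The filled points are the 8 members with an adjusted p under 0.05, all below 0, from -0.84 for Ehhadh to -0.21 for Acads.

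Among the regulators, Ppara fell and Ppard did not pass. Ppara, the gene of the receptor that switches on fatty acid oxidation in fasting, read 6.70, 6.60, 6.66 and 6.71 in the wild-type arrays and 6.42, 6.28, 6.26 and 6.16 in the knockout-labelled arrays. Every knockout-labelled array lay below every wild-type array. The log2 fold change was -0.39 (limma adjusted p = 0.00563, SE 0.064), a level 1.31-fold lower. With knockout-labelled arrays 3 and 4 left out, the log2 fold change was -0.32 and the limma adjusted p 0.0503.

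Ppard encodes PPAR delta, the relative of PPAR alpha that is active in most tissues. Its row read 7.66, 7.80, 7.82 and 7.88 in wild type and 7.86, 7.99, 7.90 and 7.85 in the knockout-labelled arrays. The groups overlapped, and the log2 fold change was 0.11 (limma adjusted p = 0.348, SE 0.062), with a 95% interval from -0.03 to 0.24.

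Pdk4, whose kinase shuts pyruvate out of the citric acid cycle and so favours fatty acid use, had the widest spread of all measured members. It read 7.56, 8.12, 8.07 and 7.64 in wild type and 9.33, 9.49, 8.14 and 8.15 in the knockout-labelled arrays. Arrays 1 and 2 were far above wild type, while arrays 3 and 4 lay just above its highest array, so the groups did not overlap. The log2 fold change was 0.93 (SE 0.30) and did not pass (limma adjusted p = 0.0943). It was 1.56 with arrays 1 and 2 alone, where it passed (limma adjusted p = 0.00245), and 0.30 with arrays 3 and 4 alone. Keeping only the arrays where Pdk4 was highest favours a pass, so that pass is no support for a rise.

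**Figure D2:**
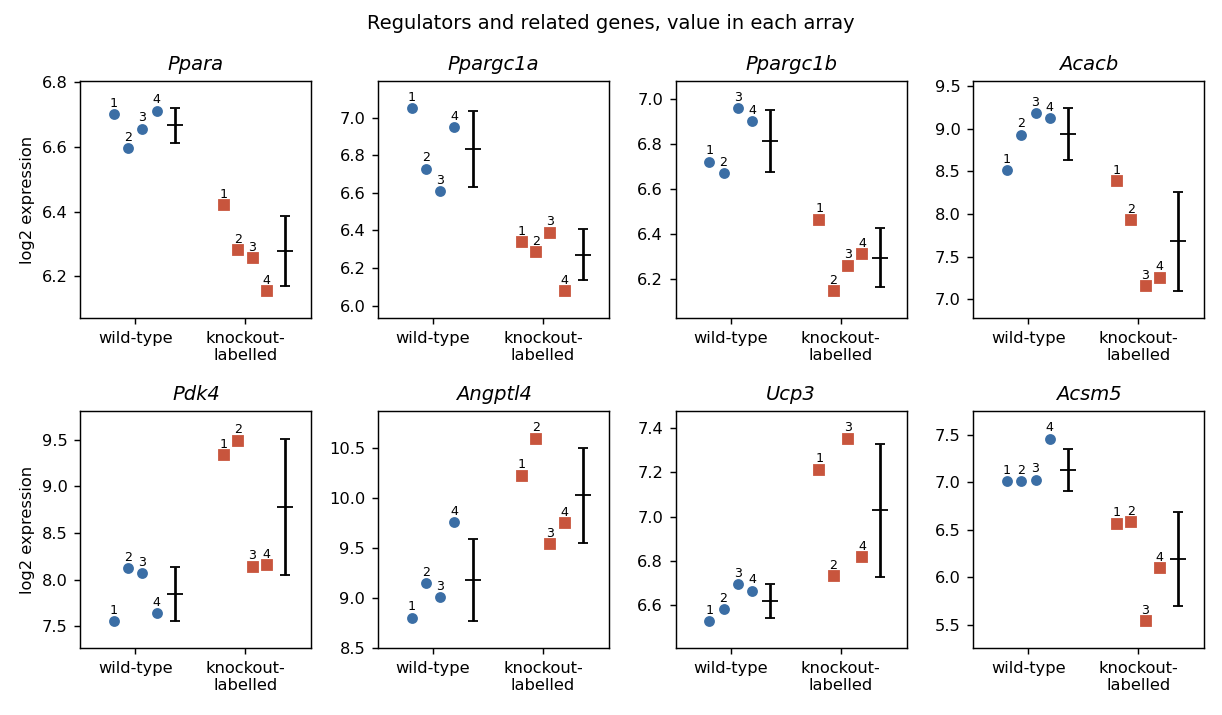
Log2 expression (y axis) in each array of Ppara, the coactivator genes Ppargc1a and Ppargc1b, the carboxylase gene Acacb, and Pdk4, Angptl4, Ucp3 and Acsm5, for wild-type (circles) and knockout-labelled (squares) arrays with replicate numbers. Bars give mean ± SD (n = 4), and Pdk4 shows knockout-labelled arrays 1 and 2 at 9.33 and 9.49, apart from arrays 3 and 4 at 8.14 and 8.15.

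None of the 3 measured synthetase genes, which activate fatty acids, passed. Acsl4, which prefers arachidonic acid, came closest, with 7.51, 7.63, 7.57 and 7.61 in wild type and 7.40, 7.39, 7.42 and 7.36 in the knockout-labelled arrays. These groups did not overlap, and the log2 fold change was -0.19 (limma adjusted p = 0.0504, SE 0.050). It passed in some other fits, for example with quantile normalization (limma adjusted p = 0.0474). Acsl6, a synthetase best known from brain, read 4.53, 4.47, 4.54 and 4.43 in wild type and 4.60, 4.48, 4.48 and 4.49 in the others, and its log2 fold change was 0.02 (SE 0.053). That of Acsl5, a synthetase of mitochondria and endoplasmic reticulum, was -0.02 (SE 0.070), and both changed sign in some fits.

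In the carnitine shuttle, 1 of 4 measured members fell, where 3.59% of all tested rows were lower. With only 4 members, 1 call does not describe the shuttle as a group. Cpt1a, the liver-type enzyme that makes acylcarnitine at the outer mitochondrial membrane, read 8.53, 8.61, 8.69 and 8.55 in wild type and 8.23, 8.30, 8.18 and 8.30 in the knockout-labelled arrays. The groups were clearly apart, with a log2 fold change of -0.34 (limma adjusted p = 0.0059, SE 0.057). Against wild type, knockout-labelled arrays 1 and 2 differed by -0.33 and arrays 3 and 4 by -0.35. Cpt2, which turns acylcarnitine back into acyl-CoA inside the mitochondrion, read 9.64, 9.64, 9.69 and 9.70 in wild type and 9.50, 9.46, 9.55 and 9.58 in the others. Its groups did not overlap either, but its log2 fold change of -0.14 (SE 0.050) did not pass (limma adjusted p = 0.114).

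The other shuttle genes did not pass. The product of Crat moves acetyl and other short acyl groups between coenzyme A and carnitine. Crat read 10.23, 10.21, 10.19 and 10.31 in wild type and 10.50, 10.43, 10.24 and 10.28 in the knockout-labelled arrays. Only knockout-labelled arrays 1 and 2 exceeded all wild-type arrays, and the log2 fold change was 0.13 (limma adjusted p = 0.302, SE 0.068). The log2 fold change of the carnitine carrier gene Slc25a20 was -0.03 (limma adjusted p = 0.876, SE 0.071).

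A stretch upstream of Cpt1a is shown because it holds the sole match to the nuclear receptor core motif AGGTCA found upstream of the 8 lower members. Windows of 250 bases before a RefSeq start (GRCm38.p6) were at hand for 36 of the 41 measured members and for all 8 lower ones. The stretch of 30 bases lies at chr19:3323195-3323224 on the plus strand, inside the annotated span of Cpt1a, and capitals mark the match, which is the motif on the opposite strand at 94 to 89 bases before the start.
Cpt1a: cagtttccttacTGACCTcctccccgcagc
AGGTCA or its reverse complement was present in 14.0% of the 32851 windows of all genes and in 12.5% of the 40 windows of the measured members. The PPAR-type direct repeat DR1, AGGNCA written in tandem with 1 base of any kind between, which can contain the core motif, and the longer Rev-erb element RORE, which also overlaps it, were searched on both strands too. They had 0 matches in the members' 40 windows, and 0.338% and 0.332% of all windows held them. A match is a description of these letters and not a binding site.

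In the mitochondrial spiral, 3 of 17 measured members fell (17.6%, against 3.59% of all tested rows) and 0 rose. The 17 log2 fold changes ran from -0.39 to 0.13. The 3 were acyl-CoA dehydrogenases and their electron acceptor. Acadl, the long-chain acyl-CoA dehydrogenase, read 9.41, 9.28, 9.42 and 9.42 in wild type and 9.20, 9.10, 8.75 and 8.95 in the knockout-labelled arrays. The groups did not overlap, arrays 3 and 4 lay lowest, and the log2 fold change was -0.39 (limma adjusted p = 0.0283, SE 0.090). Acads, the short-chain dehydrogenase, read 8.70, 8.65, 8.84 and 8.73 against 8.49, 8.54, 8.53 and 8.52. Its knockout-labelled arrays were close together and all below wild type, at -0.21 (limma adjusted p = 0.0421, SE 0.054).

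Etfb encodes the beta subunit of the electron transfer flavoprotein, which takes electrons from all of these dehydrogenases. It read 10.50, 10.54, 10.45 and 10.62 in wild type and 10.20, 10.18, 10.39 and 10.31 in the knockout-labelled arrays. Here arrays 1 and 2 were lowest, and the log2 fold change was -0.26 (limma adjusted p = 0.0372, SE 0.065). Its partner subunit gene Etfa was at -0.01 (95% interval -0.17 to 0.15) and Etfdh, whose product passes the electrons on to ubiquinone, at 0.03 (95% interval -0.10 to 0.16).

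These 3 genes lay near the threshold, and most fits with fewer arrays ended their calls while the log2 fold changes stayed between -0.45 and -0.30 for Acadl, -0.24 and -0.18 for Acads and -0.30 and -0.23 for Etfb. For Acadl, leaving out array 1, 3 or 4 of wild type or array 4 of the knockout-labelled group ended it (limma adjusted p 0.064 to 0.0804). For Acads, only the fit without array 2 of wild type kept it (limma adjusted p otherwise 0.0684 to 0.0974), and for Etfb only the fit without array 3 of the knockout-labelled group (otherwise 0.0519 to 0.104). By pair, knockout-labelled arrays 1 and 2 alone gave -0.24 for Acadl (limma adjusted p = 0.127), and arrays 3 and 4 alone gave -0.54. For Etfb, arrays 1 and 2 gave -0.34 and arrays 3 and 4 gave -0.18 (limma adjusted p = 0.179). For Acads, the pairs gave -0.22 (limma adjusted p = 0.162) and -0.21 (limma adjusted p = 0.12).

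The other dehydrogenase genes included lower values that did not pass and 1 of the opposite sign. Acad10, a less studied family member, read 6.11, 5.93, 6.25 and 6.13 in wild type and 5.92, 5.91, 5.71 and 5.81 in the knockout-labelled arrays. The groups were narrowly apart, and the log2 fold change was -0.27 (limma adjusted p = 0.0635, SE 0.077). It passed without wild-type array 2 (limma adjusted p = 0.0341). The values of the very-long-chain gene Acadvl and of Acad11 were -0.14 (limma adjusted p = 0.194) and -0.18 (limma adjusted p = 0.419). The medium-chain gene Acadm was higher in every knockout-labelled array than in any wild-type array, by 0.12 (SE 0.053), without passing (limma adjusted p = 0.238).

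The enzymes that follow the first dehydrogenation split around 0. Eci1, an isomerase needed for unsaturated chains, read 9.31, 9.36, 9.33 and 9.40 in wild type and 9.28, 9.20, 8.98 and 8.98 in the others. The groups did not overlap and arrays 3 and 4 were lowest, with a log2 fold change of -0.24 (limma adjusted p = 0.084, SE 0.075). It passed without knockout-labelled array 1 (limma adjusted p = 0.0371). Knockout-labelled arrays 1 and 2 alone gave -0.11, and arrays 3 and 4 alone gave -0.37 (limma adjusted p = 0.00931). The log2 fold changes of the hydratase gene Echs1, the hydroxyacyl-CoA dehydrogenase gene Hadh and the matrix thioesterase gene Acot2 were -0.12, -0.10 and -0.09, and those of the reductase gene Decr1 and the thiolase gene Acaa2 were 0.05 and 0.13. None of these 5 passed (limma adjusted p 0.185 to 0.651).

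Hadha and Hadhb encode the alpha and beta subunits of the mitochondrial trifunctional protein, which carries out the later steps on long chains. The 2 genes start head to head, with 273 bases between their start sites, and the stretch before Hadhb is shown because both genes share it. The pair was chosen for this after its values were seen. Their windows of 250 upstream bases have 228 bases in common. The sequence is chr5:30155003-30155252 (GRCm38.p6, plus strand), with no capitals because it held none of the 3 motifs.
Hadhb: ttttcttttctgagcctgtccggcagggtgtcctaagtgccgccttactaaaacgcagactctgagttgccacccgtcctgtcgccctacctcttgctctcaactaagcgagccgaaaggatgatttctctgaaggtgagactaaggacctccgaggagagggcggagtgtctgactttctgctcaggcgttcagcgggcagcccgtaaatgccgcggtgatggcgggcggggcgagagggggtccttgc
Hadha read 9.86, 9.84, 9.93 and 9.88 in wild type and 9.87, 9.70, 9.74 and 9.75 in the knockout-labelled arrays, a log2 fold change of -0.11 (95% interval -0.23 to 0.01). Hadhb read 9.37, 9.33, 9.44 and 9.40 against 9.67, 9.55, 9.44 and 9.39, a log2 fold change of 0.13 (95% interval -0.02 to 0.28). Hadhb was above wild type in arrays 1 and 2 and at the level of the higher wild-type arrays in arrays 3 and 4, and neither gene passed (limma adjusted p = 0.271 and 0.299).

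The peroxisomal genes held the largest falls, with 3 of 11 measured members lower (27.3%, against 3.59% of all tested rows) and 0 higher. Over this role, the median log2 fold change was -0.1 and 72.7% lay below 0. Over the mitochondrial members these values were -0.112 and 70.6%. Ehhadh, the L-bifunctional enzyme of peroxisomes and a textbook target of PPAR alpha, read 8.01, 8.16, 8.27 and 8.28 in wild type and 7.53, 7.36, 7.25 and 7.22 in the knockout-labelled arrays. The lowest wild-type array lay well above the highest knockout-labelled one. The log2 fold change was -0.84 (limma adjusted p = 0.000349, SE 0.084), a level 1.79-fold lower, and ran from -0.91 to -0.80 with single arrays left out. It was -0.74 with knockout-labelled arrays 1 and 2 and -0.95 with arrays 3 and 4.

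Pex11a encodes a membrane protein that elongates peroxisomes before they divide and is induced by PPAR alpha ligands. It read 8.80, 8.60, 8.77 and 8.77 in wild type and 8.24, 7.99, 8.21 and 8.15 in the knockout-labelled arrays. All 4 knockout-labelled arrays were low, including arrays 1 and 2, and the log2 fold change was -0.59 (limma adjusted p = 0.000937, SE 0.070). Ehhadh and Pex11a were the only members called with a change of at least 1.5-fold.

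Acaa1b is 1 of 2 closely related mouse genes for peroxisomal thiolase, which cleaves the shortened chain. It read 6.43, 6.55, 6.72 and 6.76 in wild type and 6.42, 6.28, 6.03 and 6.10 in the knockout-labelled arrays. The groups touched, with wild-type array 1 and knockout-labelled array 1 at nearly the same value, and the log2 fold change was -0.41 (limma adjusted p = 0.0344, SE 0.099). The call was lost in 6 of the 8 fits with an array left out, those without array 2, 3 or 4 of either group (limma adjusted p 0.0516 to 0.1), while the log2 fold change stayed between -0.48 and -0.35. Knockout-labelled arrays 1 and 2 alone gave -0.26 (limma adjusted p = 0.237), and arrays 3 and 4 alone gave -0.55. The row of its relative Acaa1a was at -0.14 (limma adjusted p = 0.289, SE 0.072). Transcripts of the 2 copies are alike, so how far each row reads the other gene is uncertain.

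The other peroxisomal members did not pass. Acox2, the oxidase of branched chains and bile acid precursors, read 4.84, 4.84, 4.81 and 4.67 in wild type and 4.60, 4.53, 4.50 and 4.69 in the knockout-labelled arrays. Its groups overlapped through wild-type array 4 and knockout-labelled array 4, at a log2 fold change of -0.21 (limma adjusted p = 0.0705, SE 0.062). Decr2, a reductase for unsaturated chains, read 7.56, 7.54, 7.52 and 7.49 in wild type and 7.85, 7.60, 7.58 and 7.73 in the knockout-labelled arrays. It was higher in every knockout-labelled array, at 0.16 (SE 0.067), without passing (limma adjusted p = 0.189).

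For Hsd17b4, the D-bifunctional enzyme that runs the same steps as Ehhadh with the other stereochemistry, the log2 fold change was 0.05 (95% interval -0.07 to 0.16). The oxidase gene Acox3, the carnitine octanoyltransferase gene Crot, the isomerase gene Eci2 and the thioesterase gene Acot8 were at 0.04, -0.06, -0.09 and -0.10. None of these 5 passed (limma adjusted p 0.381 to 0.76). The 8 peroxisomal members that did not pass thus lay between -0.21 and 0.16, and their 95% intervals are drawn in the plot of fold changes.

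Windows before the starts of Ehhadh, Acadl and Acaa1b are shown because these lower members have 250 upstream bases that overlap no annotated gene, as was so for 4 of the 8 lower members, the other being Acads. All are on the minus strand of GRCm38.p6, written toward the gene start, at chr16:21787835-21788084 for Ehhadh, chr1:66863310-66863559 for Acadl and chr9:119157094-119157343 for Acaa1b. None held any of the 3 motifs, so no letters are in capitals.
Ehhadh: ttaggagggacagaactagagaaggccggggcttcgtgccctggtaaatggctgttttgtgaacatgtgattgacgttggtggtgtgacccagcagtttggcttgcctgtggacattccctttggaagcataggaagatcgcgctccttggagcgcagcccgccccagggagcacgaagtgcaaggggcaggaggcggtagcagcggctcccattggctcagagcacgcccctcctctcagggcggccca
Acadl: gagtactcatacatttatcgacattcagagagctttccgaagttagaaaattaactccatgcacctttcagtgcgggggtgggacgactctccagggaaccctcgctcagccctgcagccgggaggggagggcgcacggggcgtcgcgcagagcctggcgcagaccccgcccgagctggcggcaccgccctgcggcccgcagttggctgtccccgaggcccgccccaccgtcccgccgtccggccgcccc
Acaa1b: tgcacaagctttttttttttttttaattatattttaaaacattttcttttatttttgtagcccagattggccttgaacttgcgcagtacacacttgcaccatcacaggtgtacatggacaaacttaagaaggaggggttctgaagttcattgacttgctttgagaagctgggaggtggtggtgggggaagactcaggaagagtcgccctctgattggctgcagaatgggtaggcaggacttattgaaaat
The windows differ in composition, with G or C making up 60.4% of the bases for Ehhadh, 68.0% for Acadl and 41.6% for Acaa1b. They hold 12, 25 and 2 CpG pairs. Absence of the motifs says only that these letters are not in these windows.

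**Figure D3:**
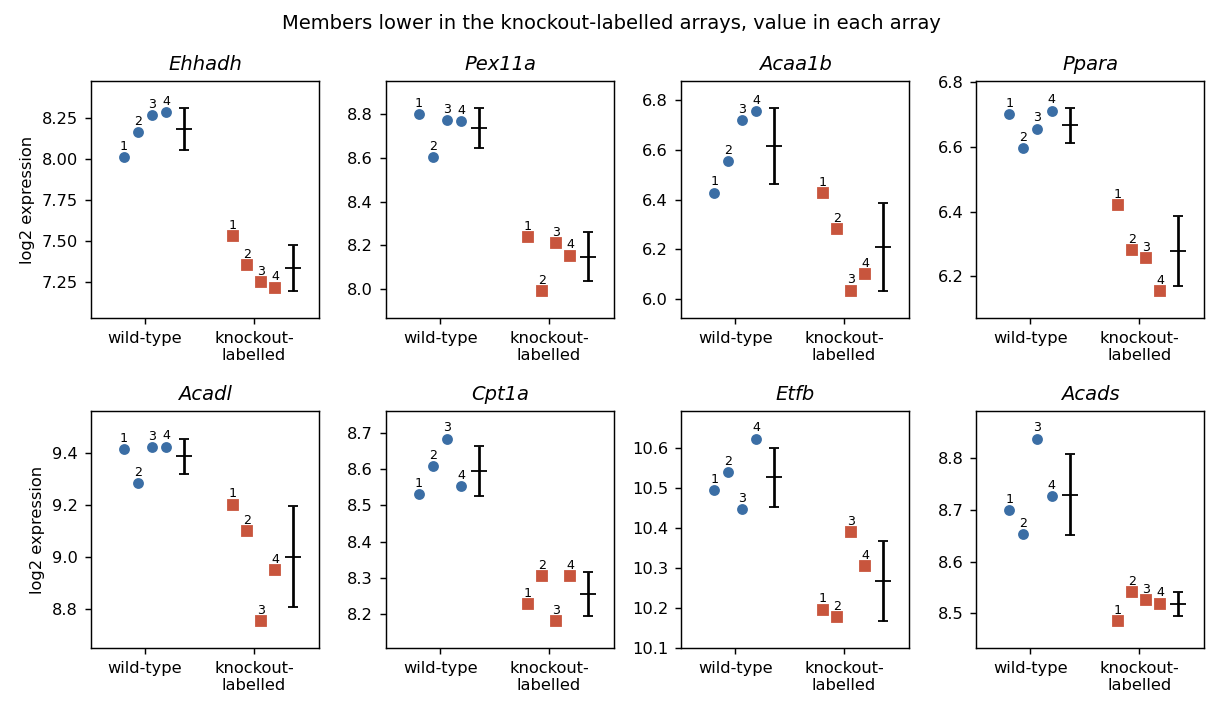
Log2 expression (y axis) in each array of the 8 members that fell, for wild-type (circles) and knockout-labelled (squares) arrays with replicate numbers, ordered by log2 fold change. Bars give mean ± SD (n = 4), and the groups do not overlap for any of the 8, with Acaa1b the closest (6.43 against 6.42 in array 1 of each group).

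The remaining roles held no call. Acot1, the cytosolic thioesterase, read 4.85, 4.59, 4.42 and 4.68 in wild type and 4.74, 4.74, 4.60 and 4.33 in the others, with a log2 fold change of -0.03 (SE 0.11). Acot1 and Acot2 are also close copies, so how far each of their rows reads the other gene is uncertain. Of the ketone genes, the thiolase gene Acat1 read 9.80, 9.82, 9.91 and 9.81 in wild type and 9.89, 9.69, 9.70 and 9.69 in the knockout-labelled arrays. All but knockout-labelled array 1 lay below wild type, and the log2 fold change was -0.09 (limma adjusted p = 0.427, SE 0.061). Bdh1, which interconverts acetoacetate and 3-hydroxybutyrate, read 4.35, 4.44, 4.68 and 4.47 against 4.32, 4.52, 4.64 and 4.52, at 0.02 (SE 0.086). The rows of Acsl6, Acox2, Acot1 and Bdh1 were among the dimmest 33.3% of rows, and the values used here carry no detection calls that would place them above background.

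Across members, 12 (29.3%) had all knockout-labelled arrays below all wild-type arrays and 3 (7.32%) had them all above. Over all rows these shares were 8.16% and 7.18%. Arrays differed in how many members lay under the wild-type mean. In wild-type arrays 1 to 4, 30, 21, 16 and 12 of the 41 members did, and in knockout-labelled arrays 1 to 4, 22, 25, 30 and 28. Wild-type array 1 thus lay at the low side of its group for most members. The median deviation of the members from the wild-type mean was -0.01 and -0.05 in knockout-labelled arrays 1 and 2 and -0.13 in each of arrays 3 and 4.

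**Figure D4:**
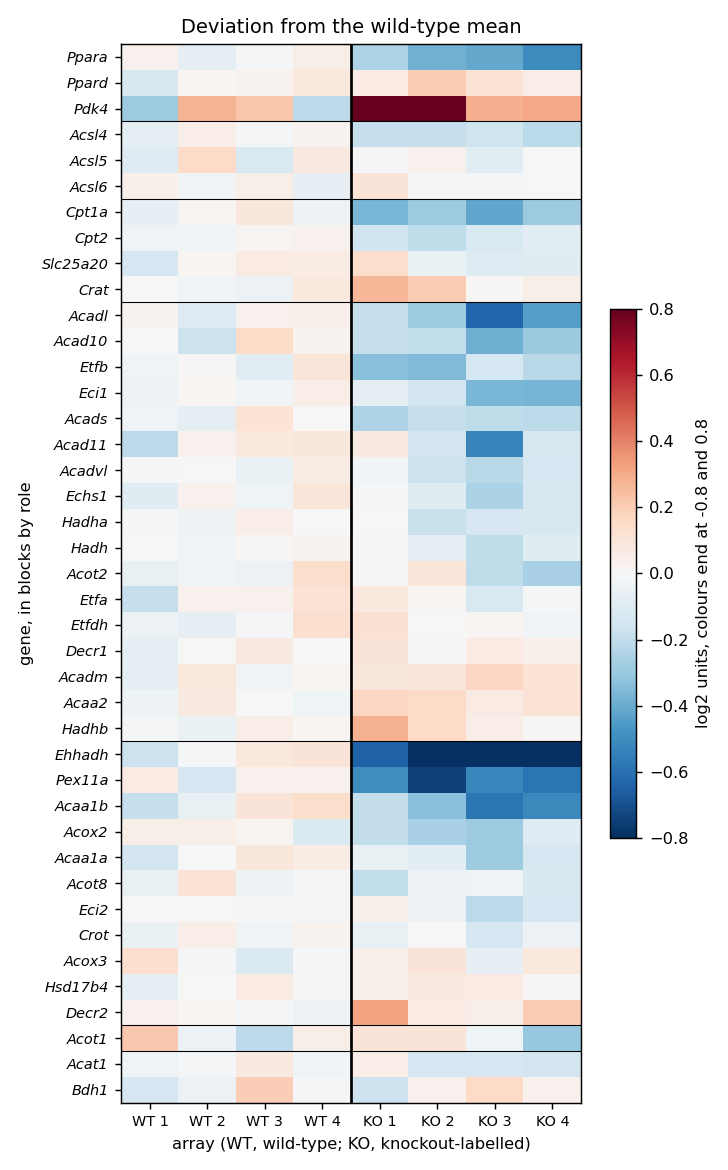
Difference of each measured member (rows, 41 genes in blocks by role) from its wild-type mean in each of the 8 arrays (columns), in log2 units, red above and blue below. Ehhadh and Pex11a are blue in all 4 knockout-labelled arrays, Pdk4 is red mainly in arrays 1 and 2, and Acadl, Eci1 and Acot2 are bluest in arrays 3 and 4.

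Further genes of the same pathways were counted from lists outside the members. The lists are short, and none was tested as a set. Over all rows the median log2 fold change was -0.0064. Of 23 measured genes of other mitochondrial steps, 2 fell and 2 rose (3.59% and 3.81% over all rows), with a median of -0.08. The medium-chain synthetase gene Acsm5 read 7.02, 7.01, 7.03 and 7.46 in wild type and 6.57, 6.58, 5.54 and 6.10 in the knockout-labelled arrays, with arrays 3 and 4 lowest. It fell by 0.93 (limma adjusted p = 0.0235, SE 0.21), and with arrays 3 and 4 left out it was at -0.56 (limma adjusted p = 0.0573). The carnitine importer gene Slc22a5 was at -0.26 (limma adjusted p = 0.0412, SE 0.067). Auh, a hydratase of leucine breakdown, rose by 0.41 (limma adjusted p = 0.00684, SE 0.070) and the thioesterase gene Acot9 was at 0.26 (limma adjusted p = 0.0435, SE 0.067). The closest of the others were Pcca of propionate metabolism (0.25, limma adjusted p = 0.0539) and Ivd of leucine breakdown (-0.30, limma adjusted p = 0.0765). Calls were lost without single arrays for Acsm5 (array 3 or 4 of wild type or array 4 of the knockout-labelled group, adjusted p up to 0.0697), Slc22a5 (each of 6 arrays, up to 0.108) and Acot9 (each of 6 arrays, up to 0.118). Without knockout-labelled arrays 3 and 4, Slc22a5 was at -0.18 (limma adjusted p = 0.244) and Acot9 at 0.18 (limma adjusted p = 0.273). Without arrays 1 and 2, Ivd passed at -0.46 (limma adjusted p = 0.00899). With quantile normalization, Slc22a5 (limma adjusted p = 0.0584) and Acot9 (0.0522) did not pass, and with median centring Slc22a5 did not (0.0688).

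Of 33 measured genes listed as peroxisomal outside the members, 2 fell and 0 rose (3.59% and 3.81% over all rows), with a median of -0.09. They were the import factor gene Pex6 (-0.29, SE 0.064, limma adjusted p = 0.0243) and the thioesterase gene Acot4 (-0.40, SE 0.11, limma adjusted p = 0.0461). The next 2 by p were the membrane protein genes Pxmp2 (-0.25, limma adjusted p = 0.0721) and Mpv17 (0.16, limma adjusted p = 0.0811). The place of Mpv17 in peroxisomes is doubtful. Leaving out array 3 or 4 of either group ended the Pex6 call (limma adjusted p up to 0.0698), and Acot4 kept its call only when the array left out was knockout-labelled array 1 (otherwise 0.0528 to 0.123). Without knockout-labelled arrays 3 and 4, Pex6 was at -0.22 (limma adjusted p = 0.17) and Acot4 at -0.24 (limma adjusted p = 0.287). With all arrays kept, the Acot4 call was lost with quantile normalization (limma adjusted p = 0.0606) and median centring (0.063). It was also lost when rows without exactly 1 symbol were tested too (0.0537).

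Of 6 measured genes around ketone bodies, 2 fell and 1 rose (3.59% and 3.81% over all rows), with a median of 0.08. Aacs, which turns acetoacetate into a precursor for lipid synthesis, read 9.21 ± 0.22 in wild type and 8.26 ± 0.17 in the knockout-labelled arrays (SD, n = 4 each; log2 fold change -0.95, SE 0.11, limma adjusted p = 0.00097). The monocarboxylate carriers, which move lactate and ketone bodies, went opposite ways. Slc16a1 rose by 0.68 (limma adjusted p = 0.000316, SE 0.067) and Slc16a7 fell by 0.59 (limma adjusted p = 0.00956, SE 0.11). Without knockout-labelled arrays 1 and 2, Slc16a7 was at -0.51 (limma adjusted p = 0.0577). The ketone-using transferase gene Oxct1 was at 0.14 (limma adjusted p = 0.213) and Bdh2 at 0.09 (limma adjusted p = 0.379).

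Of 24 PPAR partners and further PPAR targets, 2 fell and 0 rose (3.59% and 3.81% over all rows), with a median of -0.04. Both were PGC-1 coactivators, which raise mitochondrial gene activity together with PPARs. Ppargc1a read 7.05, 6.73, 6.61 and 6.95 in wild type and 6.34, 6.28, 6.39 and 6.08 in the knockout-labelled arrays (-0.56, SE 0.10, limma adjusted p = 0.00891). Ppargc1b read 6.72, 6.67, 6.96 and 6.90 against 6.46, 6.15, 6.26 and 6.31 (-0.52, SE 0.085, limma adjusted p = 0.00563). In both, all knockout-labelled arrays were below wild type, as for Ppara, and with knockout-labelled arrays 3 and 4 left out both calls were lost (limma adjusted p = 0.0564 and 0.053) at log2 fold changes of like size (-0.53 and -0.51).

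The closest of the other PPAR targets were 2 with higher values. Angptl4, a secreted inhibitor of lipoprotein lipase, read 8.80, 9.15, 9.01 and 9.76 in wild type and 10.23, 10.60, 9.54 and 9.75 in the knockout-labelled arrays. As for Pdk4, arrays 1 and 2 were highest, and its log2 fold change was 0.85 (limma adjusted p = 0.0635, SE 0.24). It passed without wild-type array 4 or knockout-labelled array 3 (limma adjusted p from 0.0301). With knockout-labelled arrays 3 and 4 both left out, Angptl4 was at 1.23 and passed (limma adjusted p = 0.0312). Ucp3, a mitochondrial carrier linked to fatty acid use in muscle, was at 0.41 (limma adjusted p = 0.0784, SE 0.13) and passed without knockout-labelled array 2 (limma adjusted p = 0.03). Next by p came the receptor gene Pparg, at -0.26 (limma adjusted p = 0.0962, SE 0.086). It read 11.06, 11.15, 11.15 and 11.07 in wild type and 10.69, 10.68, 11.05 and 10.96 in the knockout-labelled arrays. The groups did not overlap, but narrowly so.

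Of the 10 genes that set malonyl-CoA, the inhibitor of carnitine palmitoyltransferase 1, 1 fell and 0 rose (3.59% and 3.81% over all rows). Acacb, the acetyl-CoA carboxylase at the mitochondrial surface, read 8.52, 8.93, 9.18 and 9.12 in wild type and 8.39, 7.93, 7.16 and 7.26 in the knockout-labelled arrays. Arrays 3 and 4 were lowest, and the log2 fold change was -1.26 (limma adjusted p = 0.0139, SE 0.25). With arrays 3 and 4 left out it was at -0.78 and its call was lost (limma adjusted p = 0.0715). The kinase subunit genes Prkaa1 (-0.17, limma adjusted p = 0.0961) and Prkab2 (0.25, limma adjusted p = 0.0958) came next.

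Defining markers of fat cells were bright in both groups, Adipoq with a mean of 12.20 in wild type and 12.16 in the knockout-labelled arrays. Of 9 measured mature adipocyte markers, 0 fell and 2 rose (Lep by 0.75 and Aqp7 by 0.39), against 3.59% and 3.81% over all rows. The median of the 9 was -0.04 in log2 fold change, and 5 lay below 0. Plin1 (-0.20, limma adjusted p = 0.0529) and Lipe (-0.15, limma adjusted p = 0.141) did not pass. For both, every knockout-labelled array lay below every wild-type array. The log2 of the summed signal of the 9, which includes Lep and Aqp7, ran from 15.17 to 15.29 in wild type. It ran from 15.26 to 15.32 in the knockout-labelled arrays. The median log2 fold change was 0.19 over 6 endothelial markers (Pecam1 and Cldn5 rose), 0.17 over 8 macrophage markers (Cd14 fell) and 0.13 over 6 progenitor markers (Col1a1 and Pi16 rose). It was -0.19 over 5 mesothelial markers (Msln rose), 0.02 over 8 brown or beige markers (Cox7a1 rose and Ppargc1a fell), 0.0027 over 11 muscle markers (Actn3 fell), 0.01 over 6 hepatocyte markers and -0.10 over 4 epididymal ones (none passed in these 2 lists). With single arrays left out, the calls of Pecam1, Actn3, Pi16 and Cox7a1 were kept in 1, 2, 3 and 4 of 8 fits, and those of Lep, Aqp7, Cldn5, Cd14, Col1a1 and Msln in all 8. Without knockout-labelled arrays 3 and 4, Lep (limma adjusted p = 0.0725) and Cd14 (limma adjusted p = 0.112) did not pass, nor did those first 4 genes. With quantile normalization, Pecam1 (limma adjusted p = 0.0712) and Actn3 (0.0502) did not pass. Log2 summed signals ran from 11.35 to 11.56 in wild type and 11.57 to 11.82 in the knockout-labelled arrays for endothelial markers, and from 11.21 to 11.69 and 11.54 to 11.81 for macrophage markers. For progenitor markers these sums ran from 12.66 to 12.87 in wild type and 12.7 to 12.8 in the knockout-labelled arrays. For mesothelial markers they ran from 10.93 to 11.14 and 10.9 to 11.11. The part of the marker shifts in the members' values was not tested.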

How the data were processed

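The deposited values are log2 expression, 1 per row and sample of a whole-transcript Affymetrix mouse array hybridised with biotin-labelled RNA, per the labels' protocols. The submitters' processing notes name affy; the sources used here state no background correction, normalization or summarization. The log2 scale was inferred from the range of 2.09 to 13.4. Medians differ little between arrays, and a change in most genes at once would therefore be hidden. Of 23346 rows, 20748 have 1 gene symbol, 1183 several and 1415 none. The test was limma 3.58.1 (R 4.3.3) on rows with 1 symbol, by lmFit and eBayes over both groups and no filter, with Benjamini-Hochberg adjustment over all of them and two-sided p-values. The members and lists were chosen with earlier results of these data known. Named with values in every array are members that passed, Ppara and up to 2 further members per role by smallest p. Hadha and Hadhb, singled out after their values were seen, are given in the same way. From the other lists, genes that passed and up to 2 more are named. Adipoq is named too, as are Pparg, Plin1 and Lipe, chosen after their values were seen. Data were simulated with the real means and spreads over 20748 rows, of which 200 were changed. The fit recovered 16.4%, 64.2% and 95.5% of changes of 0.25, 0.5 and 1 log2, and 6.40% of called rows were unchanged ones. The real comparison called 1536 rows, and the simulated noise was independent between rows. These rates therefore need not hold for the real data. Motifs were sought in RefSeq upstream windows of GRCm38.p6, and no coordinates of array rows were used. Alternatives were quantile normalization, median centring, leaving out the dimmest 33.3% of rows, all rows, trend and robust fits, array weights, a replicate block, the mean of a gene's rows, other thresholds, and leaving out arrays. The labels state no pairing of samples. Same-numbered arrays did not deviate together, which cannot exclude a pairing. The pairs of knockout-labelled arrays left out together are not in the labels and follow a principal component of these data. No 2 arrays held identical values.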

Additional observations from a re-analysis of the deposited data

Results flagged for a closer look

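Within the groups of 4 arrays, 6 of the 82 member and group combinations had 1 array far from the other 3, by Dixon's 95% critical value for the ratio of gap to range. Chance flags about 1 in 20 such groups. In wild type, Acadl read 9.28 in array 2 against 9.41 to 9.42 in the others, and Pex11a read 8.60 in array 2 against 8.77 to 8.80. Both of these low arrays lie toward the knockout-labelled values. Also in wild type, Acot2 read 9.16 in array 4 against 8.96 to 8.98, and Acox2 read 4.67 in array 4 against 4.81 to 4.84. Among the knockout-labelled arrays, array 1 stood high for Acsl6 (4.60 against 4.48 to 4.49) and for Acat1 (9.89 against 9.69 to 9.70). What sets these arrays apart was not tested.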

How the results depend on the processing

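The 8 lower and 0 higher members were counted again under each alternative, where the count of lower members stayed within 6 to 12 except as follows. It was 4 with the replicate block and 4 with knockout-labelled arrays 3 and 4 left out together, 2 with a 1.5-fold minimum, and 4 to 7 with single arrays left out. Of these settings, a share over all rows was counted only with knockout-labelled arrays 3 and 4 left out together. Higher members numbered 1 with knockout-labelled arrays 3 and 4 left out and 1 with an adjusted p under 0.10, both Pdk4, and 0 to 0 with single arrays left out. The members' median log2 fold change ran from -0.13 to -0.06 with single arrays left out. Same-numbered arrays of the 2 groups did not deviate together (correlations -0.07 to 0.13, and 1 of 4 knockout-labelled arrays correlated best with its own number), so the replicate block does not describe a known pairing. Ppara, Cpt1a, Ehhadh and Pex11a passed under it. Median centring left 6 calls, without Acads (limma adjusted p = 0.0646) and Etfb (0.0521). It moved the median of all rows from -0.0064 to 0.01.

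Signs changed among members near 0 and not called. With median centring, Acsl5 was at 0.000897 and Etfa at 0.00734. With knockout-labelled arrays 1 and 2 left out, Acsl6 was at -0.00701 and Etfdh at -0.002, and with arrays 3 and 4 left out Acsl5 was at 0.00784, Slc25a20 at 0.0438, Etfa at 0.044, Acot2 at 0.0508, Acot1 at 0.103 and Bdh1 at -0.0652. With single arrays left out, values ran from -0.057 to 0.0343 for Acsl5, -0.00931 to 0.0343 for Acsl6, -0.0729 to 0.0275 for Etfa, -0.0012 to 0.071 for Etfdh, -0.104 to 0.0569 for Acot1 and -0.0313 to 0.0807 for Bdh1. The causes were not tested. Of 734 values of single members under the alternatives, 664 kept both direction and side of the threshold, 36 lost a call, 10 gained one and 24 changed sign. The alternatives for genes outside the members were added after seeing the data. Dim rows have no detection calls to bound them.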
